A study of Mus musculus with 5 samples.

Results

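Neutrophils store antimicrobial proteins and proteases in granules and carry the calcium-binding proteins S100a8 and S100a9 in their cytosol, and 10 genes of this kind were followed here in whole lungs of mice with and without claudin-4. The genes were chosen by symbol: S100a8, S100a9, Ngp, Camp, Ltf, Retnlg, Mpo, Elane, Csf3r and Ly6g. Of these, 9 were found among the 21590 genes of each comparison table, and Ly6g was not analysed here. The study asked how loss of Cldn4, which encodes a tight junction protein of epithelial cells, bears on lung injury caused by mechanical ventilation at high pressure (ventilator-induced lung injury, VILI).

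All 5 groups were whole lungs of mice on a mixed background of 129S6, C57BL/6 and BALB/c. KO_VILIhigh were Cldn4 knockouts ventilated for 2 h at 40 cmH2O whose injury exceeded that of wild type. KO_VILIlow were Cldn4 knockouts ventilated in the same way whose injury was similar to wild type. WT_VILI were ventilated wild-type mice, KO_noVILI were unventilated Cldn4 knockouts, and WT_noVILI were unventilated wild-type mice. The design text gives 2 libraries per group, the labels hold 1 record per group, and age is not given in the sources used here. Both ventilated knockout groups were formed by the injury of the animals, so any comparison with them describes lungs already sorted by outcome.

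Granule proteins are made in a fixed order while neutrophils mature in the bone marrow. Transcripts of primary granule enzymes such as Mpo and Elane belong to promyelocytes, and those of secondary granule proteins such as Ltf, Camp and Ngp to myelocytes and metamyelocytes, whereas S100a8, S100a9, Retnlg and Csf3r are still transcribed in mature circulating neutrophils. S100a8 and S100a9 form calprotectin, a complex that binds calcium and zinc and, once released, engages Tlr4 and Ager. In lungs, neutrophils collect in the capillaries, and in ventilator-induced injury they enter the air spaces.

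The promoters of the 4 genes on which the results turn are shown, because the calprotectin pair was higher after ventilation and Ngp and Ltf were the genes called between genotypes. The sequences are those of RefSeq on GRCm38.p6 and run from 250 bases before to 50 bases after the start of the gene, read in the direction of the gene. Capitals mark 2 motifs of myeloid factors, searched on both strands: a C/EBP-type motif, TTNNGNAA, and a PU.1-type motif, GAGGAA, which reads TTCCTC on the other strand. The windows lie at chr3:90668821-90669120 on the plus strand for S100a8, chr3:90695672-90695971 on the minus strand for S100a9, chr9:110419558-110419857 on the plus strand for Ngp, and chr9:111019042-111019341 on the plus strand for Ltf.
S100a8: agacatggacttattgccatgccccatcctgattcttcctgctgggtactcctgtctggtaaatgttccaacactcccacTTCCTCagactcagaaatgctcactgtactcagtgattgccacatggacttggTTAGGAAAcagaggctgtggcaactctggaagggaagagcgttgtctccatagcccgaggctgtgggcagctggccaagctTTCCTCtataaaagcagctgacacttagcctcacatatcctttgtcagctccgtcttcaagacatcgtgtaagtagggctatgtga
S100a9: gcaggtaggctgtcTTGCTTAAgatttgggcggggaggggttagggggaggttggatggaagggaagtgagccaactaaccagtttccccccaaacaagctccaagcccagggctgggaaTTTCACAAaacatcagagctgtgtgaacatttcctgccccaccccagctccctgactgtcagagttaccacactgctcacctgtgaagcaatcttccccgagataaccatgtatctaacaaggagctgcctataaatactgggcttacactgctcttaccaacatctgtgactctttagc
Ngp: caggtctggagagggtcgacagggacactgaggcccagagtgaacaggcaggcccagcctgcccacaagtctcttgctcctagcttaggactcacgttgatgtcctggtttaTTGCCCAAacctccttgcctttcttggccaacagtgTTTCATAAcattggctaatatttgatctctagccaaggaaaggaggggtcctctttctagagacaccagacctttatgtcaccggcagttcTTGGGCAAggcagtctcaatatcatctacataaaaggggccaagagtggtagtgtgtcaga
Ltf: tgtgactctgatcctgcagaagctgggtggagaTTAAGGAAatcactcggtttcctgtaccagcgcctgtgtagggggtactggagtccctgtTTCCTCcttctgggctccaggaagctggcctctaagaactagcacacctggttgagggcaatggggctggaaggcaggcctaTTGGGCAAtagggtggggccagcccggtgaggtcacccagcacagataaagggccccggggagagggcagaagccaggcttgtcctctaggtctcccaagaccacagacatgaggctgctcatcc
The S100a8 window held 1 C/EBP-type and 2 PU.1-type matches, and the S100a9 window held 2 C/EBP-type matches and 0 PU.1-type matches. The Ngp window held 3 C/EBP-type matches, and the Ltf window held 2 together with 1 PU.1-type match. Ngp and Ltf shared 1 form of the C/EBP-type motif letter for letter, TTGGGCAA, which began 11 bases before the start of Ngp and 75 bases before that of Ltf. Ngp held this form again on the other strand, printed as TTGCCCAA, from 138 bases before its start. Of all 10 genes, 6 held a C/EBP-type match and 6 a PU.1-type match, against 40.7 and 28.3 percent of the 32851 promoters in the RefSeq table. These matches describe the letters in a short window and not bound sites.

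Only the authors' 4 comparison tables were used, which hold a log2 fold change, a mean abundance and p-values per gene and 0 columns per library, so depth and the spread between animals are unknown. Nothing states whether the libraries came from separate animals, and p-values then measure only the spread between those libraries. Group levels in CPM, counts scaled to library size, were rebuilt from the fold change and the mean abundance of a table, 1 value per group with no replicate error. The targeted gene Cldn4 matched the labels, at a rebuilt level of 0.122 CPM in KO_VILIhigh, 0.0212 in KO_VILIlow, 139.7 in WT_VILI, 0.14 in KO_noVILI and 8.98 in WT_noVILI by the authors' deposited tables. Of 9 lung markers, Sftpb and Ager were abundant in every group: Sftpb, a surfactant protein, lay between 3642 CPM in KO_noVILI and 2884 CPM in WT_noVILI, and Ager of alveolar type 1 cells between 1921 CPM in KO_VILIhigh and 1575 CPM in WT_VILI, by the authors' deposited tables. In the authors' deposited edgeR tables, WT_VILI against WT_noVILI had 1 of the 9 higher, Sftpd at 0.47, and 1 lower, Foxj1 at -1.68 (log2). KO_noVILI against WT_noVILI had 1 lower, Scgb3a2 at -0.68, and 0 higher. Sftpc and Scgb1a1 carry a deposited fold change of exactly 0, so nothing is stated of them. The groups also differed in sex-linked transcripts: by the same deposited tables of the authors, Ddx3y of the Y chromosome stood at 90.7, 107 and 115 CPM in KO_VILIhigh, KO_VILIlow and WT_VILI, against 0.421 and 0.0984 CPM in KO_noVILI and WT_noVILI. Effects of ventilation on any gene below therefore cannot be told apart from effects of sex. In whole lung, fewer neutrophils and less RNA per neutrophil also cannot be told apart.

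Calprotectin transcripts were several-fold higher in each ventilated group than in either unventilated group. From the authors' deposited tables, S100a8 stood at 185 CPM in KO_VILIhigh, 141 CPM in KO_VILIlow, 101 CPM in WT_VILI, 23.0 CPM in KO_noVILI and 20.4 CPM in WT_noVILI. S100a9, its partner in the complex, stood at 476 CPM in KO_VILIhigh, 378 CPM in KO_VILIlow, 276 CPM in WT_VILI, 71.4 CPM in KO_noVILI and 76.1 CPM in WT_noVILI in the authors' deposited tables. Both genes had the same order of the 3 ventilated groups, and the unventilated groups lay close together. Both genes lie on chromosome 3, with starts 26.7 kb apart.

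Retnlg, a resistin-like protein secreted by mouse neutrophils, and Csf3r, the receptor for the granulocyte growth factor G-CSF, followed the same split by ventilation. In the authors' deposited tables, Retnlg stood at 72.8 CPM in KO_VILIhigh, 41.3 CPM in KO_VILIlow, 41.4 CPM in WT_VILI, 6.03 CPM in KO_noVILI and 8.42 CPM in WT_noVILI. The levels of Csf3r in the authors' deposited tables were 157 CPM in KO_VILIhigh, 119 CPM in KO_VILIlow, 102 CPM in WT_VILI, 32.3 CPM in KO_noVILI and 34.0 CPM in WT_noVILI. Retnlg was thus nearly equal in KO_VILIlow and WT_VILI, although it stood at 41.3 CPM in KO_VILIlow and 55.2 CPM in WT_VILI with the abundance of the authors' deposited tables read as a mean of logs, and Csf3r differed little between the unventilated groups.

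Of the secondary granule genes, Ngp had the largest spread of rebuilt levels over the 5 groups. Ltf, which encodes the iron-binding protein lactoferrin and is also active in secretory epithelium, stood at 40.6 CPM in KO_VILIhigh, 15.9 CPM in KO_VILIlow, 11.9 CPM in WT_VILI, 6.71 CPM in KO_noVILI and 4.65 CPM in WT_noVILI in the authors' deposited tables. Ngp, neutrophilic granule protein, stood at 41.5 CPM in KO_VILIhigh, 23.0 CPM in KO_VILIlow, 14.7 CPM in WT_VILI, 5.94 CPM in KO_noVILI and 0.834 CPM in WT_noVILI by the authors' deposited tables. Camp, which encodes the antimicrobial peptide cathelicidin, gave 7.90 CPM in KO_VILIhigh, 6.88 CPM in KO_VILIlow, 3.78 CPM in WT_VILI, 1.57 CPM in KO_noVILI and 0.297 CPM in WT_noVILI in the authors' deposited tables. All 3 genes had the same order of the 5 groups in these levels, with KO_VILIhigh at the top and WT_noVILI at the bottom. With the deposited abundance read as a mean of logs, Ngp stood at 24.0 CPM in KO_VILIlow and 32.5 CPM in WT_VILI by the authors' deposited tables, which turns the order of these groups. The authors' deposited comparison of these groups itself put Ngp 1.79-fold higher in KO_VILIlow.

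Mpo and Elane, the 2 primary granule genes of the 9, were close to or at the lowest level the tables hold. Every table has a lowest abundance shared by many genes, all with a fold change of 0, which lies between 0.238 and 0.387 CPM. Elane, neutrophil elastase, was at that lowest value in all 4 of the authors' deposited tables, with a fold change of 0 and an adjusted p of 1 by edgeR. Mpo, myeloperoxidase, stood at 0.885 CPM in KO_VILIhigh, 0.281 CPM in KO_VILIlow, 0.602 CPM in WT_VILI, 0.545 CPM in KO_noVILI and 0.417 CPM in WT_noVILI by the authors' deposited tables, and was called in none of the 4. No fold is given for these genes. For WT_VILI, rebuilt from 3 tables, the levels of S100a8, S100a9, Csf3r and Retnlg differed by 1.22 to 4.43 percent between tables, those of Ngp and Ltf by 13.7 and 14.2 percent, that of Camp by 29.7 percent and that of Mpo by 56.1 percent.

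**Figure D1:**
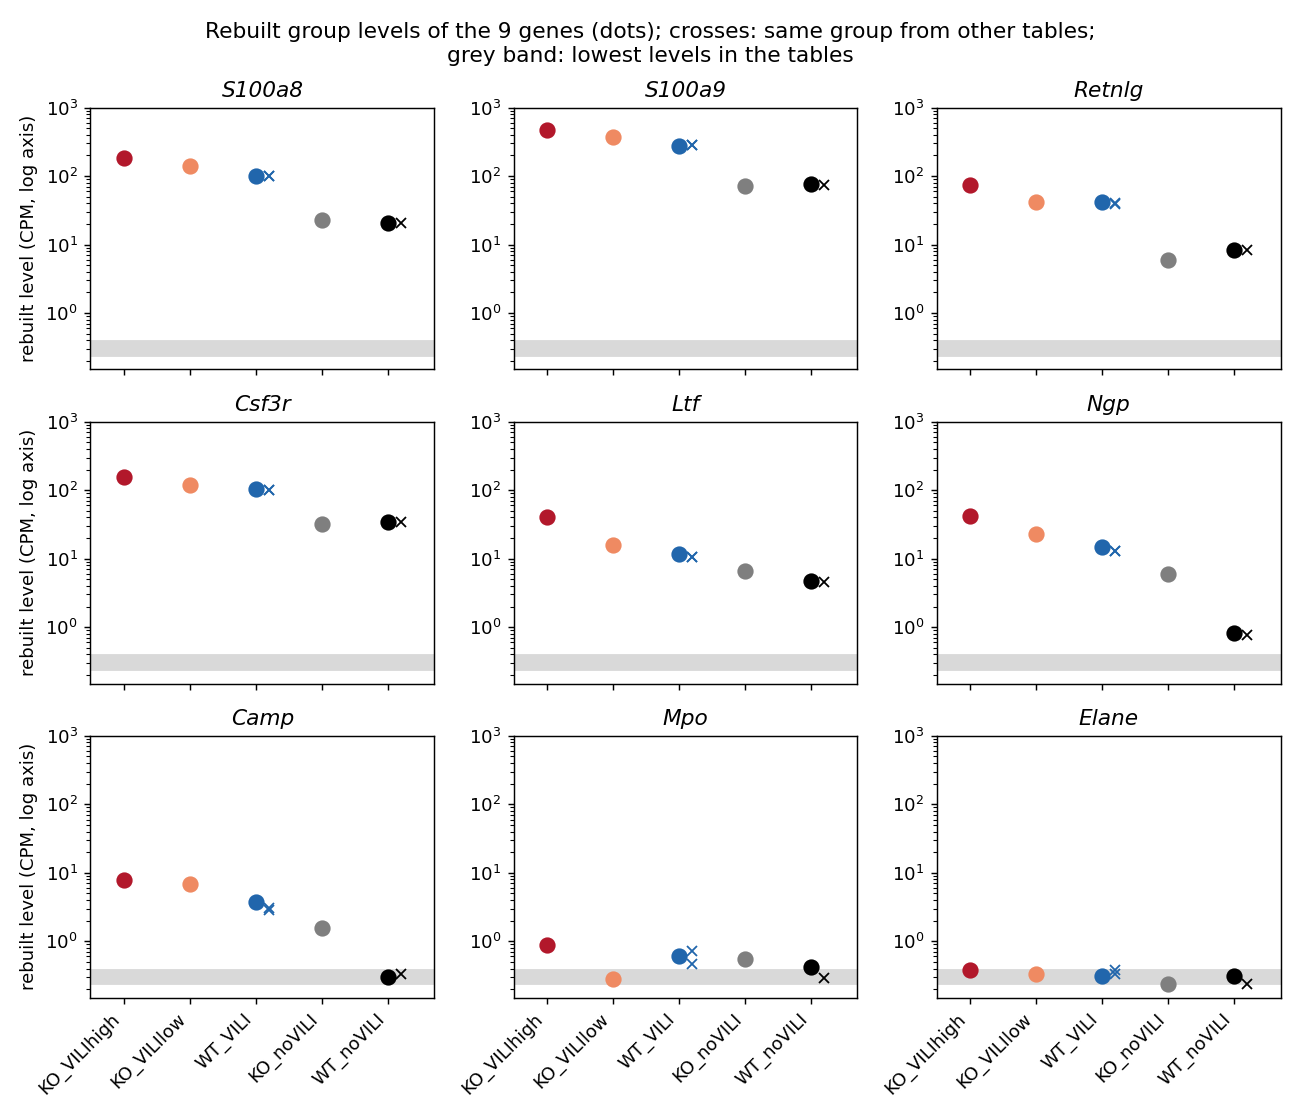
Rebuilt level in CPM on a log axis (vertical) of each of the 9 genes in the 5 groups (horizontal), where dots are the levels given in the text, crosses are the same wild-type group rebuilt from other tables, and the grey band spans the lowest levels in the tables. The 3 ventilated groups lie above both unventilated groups for every gene except Mpo, which has no such order, and Elane, which lies within the band.

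In ventilated wild-type lungs 7 of the 9 genes were higher than in unventilated ones, and Mpo and Elane were not called. S100a8 was 4.93-fold and S100a9 3.62-fold higher in WT_VILI than in WT_noVILI by the authors' deposited table. Retnlg was 4.92-fold, Csf3r 3.01-fold and Ltf 2.55-fold higher in the same deposited table of the authors. Ngp and Camp were near the lowest level of the tables in WT_noVILI, so their fold changes are fitted values and not bounds.

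By edgeR in the authors' deposited table, the log2 fold change of S100a8 was 2.30 (approximate SE 0.417, adjusted p = 2.04e-06). The approximate SE was back-calculated from each deposited p, taken as two-sided and normal. In the same order of log2 fold change, SE and edgeR adjusted p, the authors' deposited table gave 1.86, 0.437 and 0.000634 for S100a9, and 2.30, 0.563 and 0.00119 for Retnlg. Csf3r had the smallest error of these, with a log2 fold change of 1.59 (SE 0.240, edgeR adjusted p = 3.3e-09 in the authors' deposited table). Among the granule genes, the authors' deposited edgeR table gave Ngp 4.14 (SE 0.427, adjusted p = 8.72e-20), Camp 3.67 (SE 0.863, adjusted p = 0.000637) and Ltf 1.35 (SE 0.343, adjusted p = 0.00192), all on the log2 scale. The background was 4.85 percent of all genes called higher in WT_VILI, and 1962 of the 21590 genes were called in either direction. At an unadjusted p under 0.05, 7 of the 9 genes and 17.9 percent of all genes stood out in either direction, and the median log2 fold change was 1.86 over the 9 genes against 0 over all genes.

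**Figure D2:**
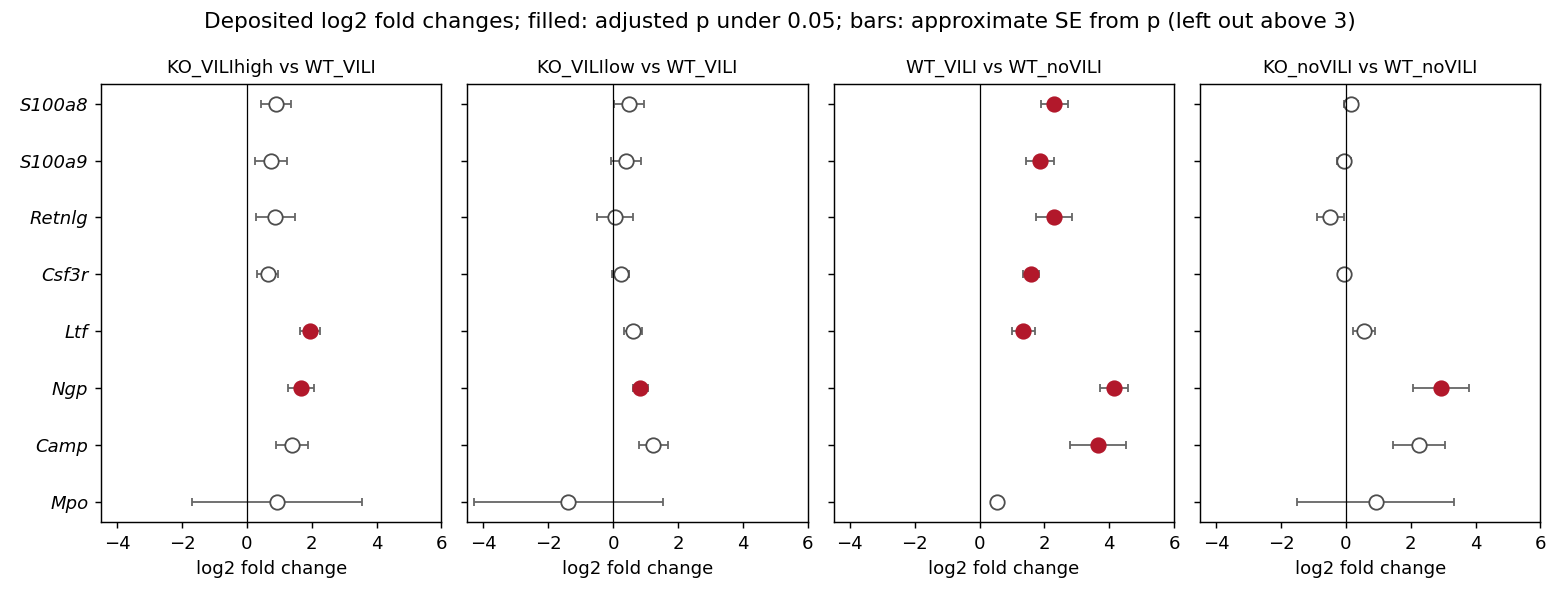
Deposited log2 fold change (horizontal) of 8 genes (rows, Elane left out because its fold change is 0 in all tables) in the 4 deposited comparisons (panels), where filled points passed an adjusted p of 0.05, open points did not, and bars are approximate SEs. In WT_VILI against WT_noVILI 7 points are filled, in KO_VILIhigh against WT_VILI Ngp and Ltf are filled, and in each other panel Ngp alone is filled.

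Other neutrophil genes rose in part in ventilated wild-type lungs. Of 20 surface receptors without Csf3r, 7 were higher and 1 was lower, with a median log2 fold change of 0.45. The authors' deposited edgeR table gave 5.89 for the decoy receptor Il1r2 (adjusted p = 2.59e-18), 2.74 for the amplifier of inflammatory signals Trem1 (adjusted p = 1.85e-12) and 1.08 for the lipoprotein sensor Tlr2 (adjusted p = 6.82e-09). Il1r2 was near the lowest level in WT_noVILI, so its value is a fitted one. Cxcr2, the receptor for neutrophil-attracting chemokines, stood at 74.2 CPM in KO_VILIhigh, 50.6 CPM in KO_VILIlow, 40.0 CPM in WT_VILI, 15.3 CPM in KO_noVILI and 11.1 CPM in WT_noVILI by the authors' deposited tables.

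Of 11 further secondary and tertiary granule genes, 5 were higher in WT_VILI and 2 were lower. The collagenase Mmp8 had a log2 fold change of 3.59 (edgeR adjusted p = 2.45e-12) in the authors' deposited table. The lower pair was Chi3l3 and Cybb, which macrophages and monocytes also express and of which Chi3l3 has a near-identical copy, at -1.20 (edgeR adjusted p = 7.92e-14) and -1.22 (edgeR adjusted p = 0.000338) as log2 values in the authors' deposited table. Of 5 further primary granule genes, 1 was higher, the serine protease Prss57, at 0.61 on the log2 scale (edgeR adjusted p = 0.0395) in the authors' deposited table. Of 12 further cytosolic genes and stefins, 3 were higher, with the interferon-inducible gene Slfn4 at 1.86, the stefin-like gene Gm5483 at 2.57 and the phospholipid-binding protein Anxa1 at 0.83 (log2) in the authors' deposited edgeR table. Gm5483 belongs to a cluster of near-identical copies, so its reads may be split between them.

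Of 9 chemoattractants, 4 were higher in WT_VILI and 0 were lower, with a median log2 fold change of 2.03. The authors' deposited edgeR table gave 5.10 for Cxcl2, 3.86 for Ccl3 and 3.21 for Cxcl1 on the log2 scale, of which Cxcl2 was near the lowest level in unventilated lungs and its value is a fitted one. Of 9 endothelial adhesion genes, 0 were called by the deposited edgeR test and 0 had an unadjusted p under 0.05. Of 14 other S100 genes, 1 was higher and 1 was lower: S100g at 0.60 and S100a4 at -0.93 (log2) in the authors' deposited edgeR table. Of 3 resistin family genes, 0 were called by edgeR, while 2 had an unadjusted p under 0.05, against 17.9 percent of all genes. Both were lower in WT_VILI, unlike Retnlg: Retnla at -0.73 and Retn at -2.89 in log2 units in the authors' deposited edgeR table. Retn was near the lowest level, at 0.168 CPM in WT_VILI and 1.24 CPM in WT_noVILI by the authors' deposited tables, and Retnlb was at it. Among 8 receptors of calprotectin and granule proteins, the co-receptor Cd14 was the 1 called, at 1.58 in log2 units in the authors' deposited edgeR table. Of 9 protease inhibitors, 3 were higher: Serpina3n at 0.98, Timp1 at 1.25 and Serpina3g at 0.91 in log2 units in the authors' deposited edgeR table. Of 10 regulators of granulopoiesis, 2 were higher, among them Cebpd at 1.29 (edgeR adjusted p = 3.99e-14), and 3 were lower, among them Myb at -1.51 and Cebpa at -0.95 in log2 units in the authors' deposited table.

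**Figure D3:**
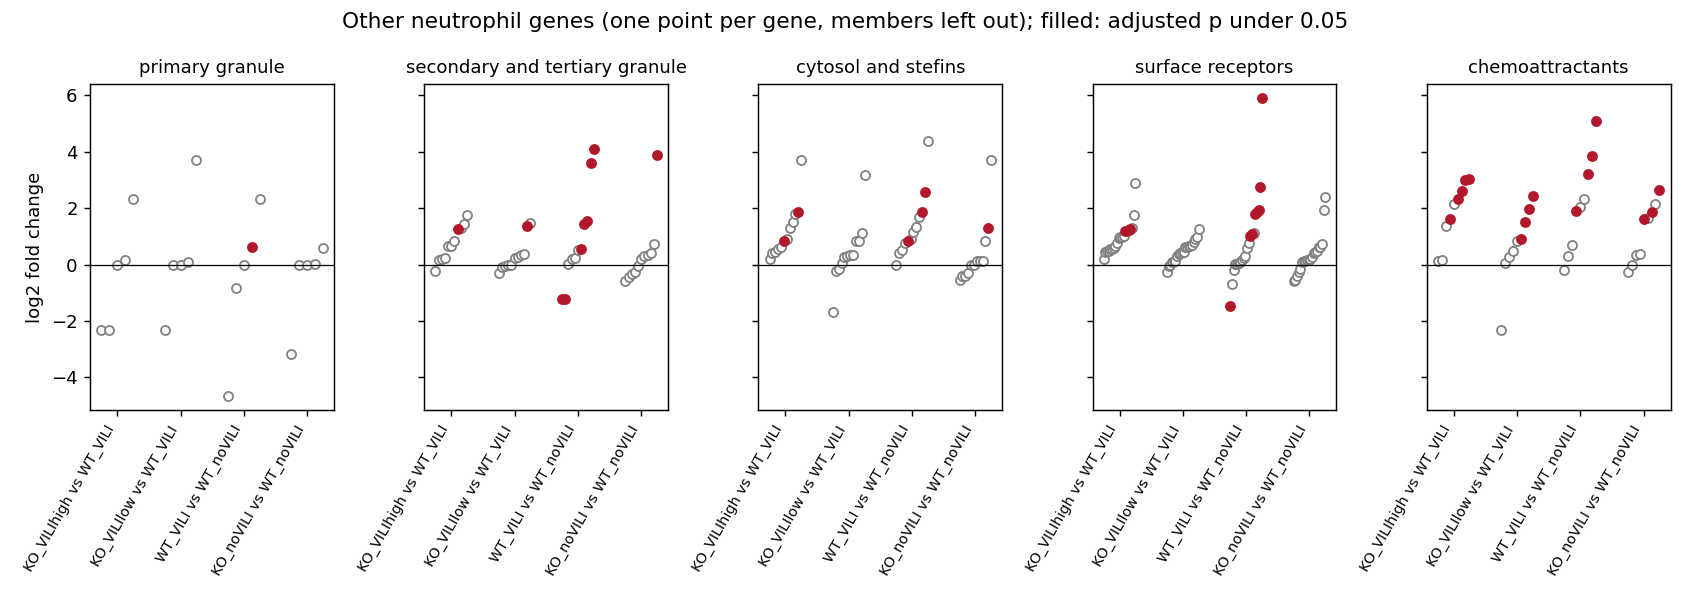
Deposited log2 fold change (vertical) of the further genes of 5 lists (panels) in the 4 deposited comparisons (horizontal), where each point is a gene and filled points passed an adjusted p of 0.05. Chemoattractants have called genes in every comparison, at least 3 of 9, whereas further primary granule genes have 1 called gene in WT_VILI against WT_noVILI and 0 elsewhere. Among the primary granule genes shown, only Prss57 lies well above the lowest levels in the tables.

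Without ventilation, knockout lungs differed from wild type in 1 of the 9 genes. Ngp was higher in KO_noVILI than in WT_noVILI, with a log2 fold change of 2.93 (SE 0.867, edgeR adjusted p = 0.0285) in the authors' deposited table. The WT_noVILI level of Ngp lies near the lowest in the table, so this is a fitted value and no bound. Of all genes, 1.45 percent were called higher in KO_noVILI. At an unadjusted p under 0.05, 2 of the 9 genes and 12 percent of all genes stood out in either direction, and the median log2 fold change was 0.17 over the 9 genes and 0 over all genes.

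Camp had a log2 fold change of 2.25 that did not pass the test (SE 0.795, edgeR adjusted p = 0.0984 in the authors' deposited table). Ltf was at 0.56 (SE 0.344, edgeR adjusted p = 0.592) and Retnlg at -0.48 (SE 0.414, edgeR adjusted p = 0.878) in the authors' deposited table, so the sign differed between them and neither passed. For the genes of mature neutrophils, the authors' deposited edgeR table gave S100a8 0.17 (SE 0.219), S100a9 -0.07 (SE 0.213) and Csf3r -0.07 (SE 0.163) on the log2 scale, each with an adjusted p of 1. These errors are the smallest of the 9 genes in this comparison.

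Of 11 further secondary and tertiary granule genes, 1 was higher in KO_noVILI than in WT_noVILI, the granule protein Olfm4, at 3.87 on the log2 scale (edgeR adjusted p = 0.0121) in the authors' deposited table. Olfm4 too was at a low rebuilt level, 1.50 CPM in KO_noVILI and 0.131 CPM in WT_noVILI by the authors' deposited tables. Padi4, the enzyme that citrullinates histones in neutrophils, was the 1 of 12 further cytosolic genes called, at 1.30 (edgeR adjusted p = 0.0332) in the authors' deposited table. Of 9 chemoattractants, 3 were higher: Cxcl2 at 2.64, Ppbp at 1.87 and Cxcl1 at 1.63 in log2 units in the authors' deposited edgeR table. The value of Cxcl2 is again a fitted one. Ppbp is stored in platelets and also stands in the platelet list. Of 20 further surface receptors and 5 further primary granule genes, 0 were called by edgeR, while 6 of the receptors and 0 of the granule genes had an unadjusted p under 0.05. Only Prss57 of these granule genes lay well above the lowest level.

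Among ventilated lungs, knockouts with injury similar to wild type also differed in Ngp alone. Ngp was 1.79-fold higher in KO_VILIlow than in WT_VILI, a log2 fold change of 0.84 (SE 0.238, edgeR adjusted p = 0.046) in the authors' deposited table. Of all genes, 0.676 percent were called higher in KO_VILIlow. At an unadjusted p under 0.05, 3 of the 9 genes and 5.43 percent of all genes stood out in either direction, and the median log2 fold change over the 9 genes was 0.41. Camp was at 1.24 (SE 0.451, edgeR adjusted p = 0.284) and Ltf at 0.61 (SE 0.268, edgeR adjusted p = 0.638) in the authors' deposited table, and neither passed.

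The authors' deposited edgeR table gave S100a8 0.49 (SE 0.456), S100a9 0.41 (SE 0.466), Csf3r 0.24 (SE 0.264) and Retnlg 0.05 (SE 0.549) on the log2 scale for KO_VILIlow against WT_VILI, each with an adjusted p of 1. Differences of this size are within about 1 SE of 0, and the errors leave room for a change in either direction. Of 11 further secondary and tertiary granule genes, Chi3l3 was the 1 called higher, at 1.36 (edgeR adjusted p = 8.91e-10) in the authors' deposited table, and Lyz2 carries a deposited fold change of exactly 0 there although it is abundant, so nothing is stated of it. Of 9 chemoattractants, 4 were higher, among them Ppbp at 1.99, Cxcl2 at 1.50 and Cxcl1 at 0.92 in log2 units in the authors' deposited edgeR table. Of 20 further surface receptors, 12 cytosolic genes and 5 primary granule genes, 0 were called by edgeR, and 4 of the receptors had an unadjusted p under 0.05. Only Prss57 of the primary granule genes lay well above the lowest level.

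The ventilated knockouts of the more injured group had higher levels of 2 secondary granule genes. Ltf was 3.86-fold higher in KO_VILIhigh than in WT_VILI, a log2 fold change of 1.95 (SE 0.296, edgeR adjusted p = 2.13e-08) in the authors' deposited table. Ngp was 3.18-fold higher, a log2 fold change of 1.67 (SE 0.394, edgeR adjusted p = 0.00308) in the same deposited table of the authors. Of all genes, 1.13 percent were called higher in KO_VILIhigh. At an unadjusted p under 0.05, 4 of the 9 genes and 8.28 percent of all genes stood out in either direction, and the median log2 fold change over the 9 genes was 0.90. Camp, the other secondary granule gene, was at 1.38 and did not pass (SE 0.496, edgeR adjusted p = 0.18 in the authors' deposited table).

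The calprotectin genes and the genes of mature neutrophils did not pass between KO_VILIhigh and WT_VILI. S100a8 was at 0.90 (SE 0.459, edgeR adjusted p = 0.603) and S100a9 at 0.75 (SE 0.482, edgeR adjusted p = 0.863) in log2 units in the authors' deposited table. Retnlg was at 0.88 (SE 0.599, edgeR adjusted p = 0.906) and Csf3r at 0.64 (SE 0.319, edgeR adjusted p = 0.555) in the authors' deposited table. All 4 fold changes were positive and between 1 and 3 SEs from 0.

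Further neutrophil genes were called in several lists in KO_VILIhigh. Of 20 further surface receptors, 3 were higher than in WT_VILI, with a median log2 fold change of 0.96. These were Tlr2 at 1.19 (edgeR adjusted p = 5.19e-06), the complement receptor C5ar1 at 1.27 (edgeR adjusted p = 0.00142) and Trem1 at 1.24 (edgeR adjusted p = 0.021) in the authors' deposited table. Of 12 further cytosolic genes, Padi4 at 1.87 (edgeR adjusted p = 0.0121) and the histamine-forming enzyme Hdc at 0.84 (edgeR adjusted p = 0.0126) were higher in the authors' deposited table. Of 11 further granule genes, Chi3l3 was the 1 called higher, at 1.27 (edgeR adjusted p = 2.56e-05) in the authors' deposited table, and of 5 primary granule genes, 0 were called by edgeR and 0 had an unadjusted p under 0.05. Only Prss57 of these primary granule genes lay well above the lowest level.

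Of 9 chemoattractants, 5 were higher in KO_VILIhigh, among them Cxcl2 at 2.99, Cxcl1 at 2.61 and Ccl3 at 2.32 in log2 units in the authors' deposited edgeR table. Selp, the endothelial selectin on which neutrophils roll, was the 1 of 9 adhesion genes called, at 2.41 (edgeR adjusted p = 0.00718) in the authors' deposited table. Selp is also made by platelets. The growth factor Csf1 at 1.54 and the granulopoiesis factor Cebpb at 0.81 were the 2 of 10 regulators called, with Cd14 at 1.67 and Timp1 at 1.76 called among the calprotectin receptors and the protease inhibitors, all in log2 units in the authors' deposited edgeR table. Of 14 other S100 genes, 0 were called by edgeR, while 3 had an unadjusted p under 0.05, against 8.28 percent of all genes.

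No deposited table compares both ventilated knockout groups, and this contrast was derived by subtracting fold changes that share the WT_VILI libraries. WT_VILI cancels in the difference, but its error is still counted, which enlarges the SEs and makes the test conservative. A gene not called here is therefore not shown to be equal in both groups. Of 7 tested genes, 0 were called between KO_VILIhigh and KO_VILIlow with the approximate normal test, against 0.127 percent of 14157 genes called higher, and Ltf was the 1 gene with an unadjusted p under 0.05, against 2.1 percent of the genes tested. The difference for Ltf was 1.34 on the log2 scale (SE 0.399, Benjamini-Hochberg adjusted p = 0.25) between the authors' deposited edgeR tables. Ngp differed by 0.83 (SE 0.460), Retnlg by 0.82 (SE 0.813), S100a8 by 0.41 (SE 0.647) and Csf3r by 0.41 (SE 0.414) between the authors' deposited edgeR tables. All were positive, and only Ltf lay more than 2 SEs from 0. With the error from the t quantile with 2 degrees of freedom, 2 of the genes, Ngp and Ltf, were called higher in KO_VILIhigh. In that setting the p-value came from a t distribution with more degrees of freedom than the error.

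The ventilation response within knockouts was derived in the same way. WT_VILI and WT_noVILI cancel in it while their errors are still counted, so these tests are conservative too. Of 6 tested genes, 4 were higher in KO_VILIlow than in KO_noVILI, against 2.04 percent of 13826 genes, and 5 were higher in KO_VILIhigh than in KO_noVILI, against 2.28 percent of 13883 genes. S100a8 had a derived log2 fold change of 3.03 (SE 0.657) in KO_VILIhigh and 2.62 (SE 0.655) in KO_VILIlow, both against KO_noVILI, with Benjamini-Hochberg adjusted p of 0.000301 and 0.00375 from the authors' deposited edgeR tables. Csf3r was at 2.30 (SE 0.431) in KO_VILIhigh and 1.89 (SE 0.392) in KO_VILIlow on the same scale from the authors' deposited edgeR tables. S100a9 at 2.67 and Retnlg at 3.66 in KO_VILIhigh, and at 2.33 and 2.83 in KO_VILIlow, passed in both contrasts, derived from the authors' deposited edgeR tables. Retnlg in KO_VILIlow had a Benjamini-Hochberg adjusted p of 0.0468 from the authors' deposited edgeR tables, and was not called there with no abundance minimum or with the error from the t quantile.

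Of the granule genes, Ltf passed in 1 of these contrasts and Ngp in 0, whereas both passed in both contrasts with the error from the t quantile with 2 degrees of freedom. Ltf was at 2.74 (SE 0.569, Benjamini-Hochberg adjusted p = 0.000123) in KO_VILIhigh, and at 1.40 (SE 0.555, adjusted p = 0.212) in KO_VILIlow, from the authors' deposited edgeR tables. Ngp was at 2.88 (SE 1.04) in KO_VILIhigh and 2.04 (SE 0.995) in KO_VILIlow from the authors' deposited edgeR tables. Camp was under the abundance minimum of these contrasts, a mean log2 CPM of 0 in every table used. Whether the genotype difference changed with ventilation was tested directly. Of the genes, 0 were called, against 1.48 percent of 14039 genes called in either direction for KO_VILIhigh and 1.15 percent of 13968 for KO_VILIlow. An unadjusted p under 0.05 was given to 8.75 percent of all genes for KO_VILIhigh and to 5.41 percent for KO_VILIlow. Among the neutrophil genes, Ltf at 1.39 (SE 0.454, Benjamini-Hochberg adjusted p = 0.102) and Csf3r at 0.71 (SE 0.358, adjusted p = 0.564) stood out for KO_VILIhigh, and Ngp at -2.09 (SE 0.899, adjusted p = 0.606) for KO_VILIlow, at that unadjusted threshold, from the authors' deposited edgeR tables.

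Blood cell markers moved between the same groups. The summed level of the 9 neutrophil genes was 982 CPM in KO_VILIhigh, 726 CPM in KO_VILIlow, 551 CPM in WT_VILI, 148 CPM in KO_noVILI and 145 CPM in WT_noVILI from the authors' deposited tables. S100a9, which did not pass between KO_VILIhigh and WT_VILI, gave 476 CPM of the KO_VILIhigh sum and 276 CPM of the WT_VILI sum in the authors' deposited tables. For 9 red blood cell genes the sums from the authors' deposited tables were 3133 CPM in KO_VILIhigh, 3448 CPM in KO_VILIlow, 938 CPM in WT_VILI, 6317 CPM in KO_noVILI and 3667 CPM in WT_noVILI. The globin genes Hba-a2 and Hbb-bs gave 1882 and 1138 CPM of the KO_VILIhigh sum in the authors' deposited tables. Red cell transcripts were thus lowest in WT_VILI, the group against which both ventilated knockout groups were compared. Of these 9 genes, 4 were lower in WT_VILI than in WT_noVILI, 4 were higher in KO_VILIhigh than in WT_VILI and 1 was higher in KO_VILIlow than in WT_VILI. Alas2, the enzyme that starts haem synthesis in red cells, was at 2.26 in KO_VILIhigh against WT_VILI, and at -2.07 in WT_VILI against WT_noVILI, in log2 units in the authors' deposited edgeR tables.

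For 9 platelet genes the sums were 71.8 CPM in KO_VILIhigh, 71.8 CPM in KO_VILIlow, 36.3 CPM in WT_VILI, 28.8 CPM in KO_noVILI and 18.7 CPM in WT_noVILI in the authors' deposited tables. Platelet genes were therefore higher in the ventilated knockouts than in WT_VILI in sum, and 2 of 9 passed in KO_VILIhigh and 3 of 9 in KO_VILIlow. The monocyte sum moved less, with 671 CPM in KO_VILIhigh, 679 CPM in KO_VILIlow, 593 CPM in WT_VILI, 726 CPM in KO_noVILI and 718 CPM in WT_noVILI in the authors' deposited tables. Of these 9 genes, 3 were lower in WT_VILI than in WT_noVILI, among them Cx3cr1 at -2.13 and Ccr2 at -1.89 in log2 units in the authors' deposited edgeR table. Chi3l3 stands in the monocyte list and also among the secondary and tertiary granule genes. It gave 252 CPM of the monocyte sum in KO_VILIhigh, 270 CPM in KO_VILIlow and 106 CPM in WT_VILI in the authors' deposited tables. The alveolar macrophage sum over 11 genes lay between 416 CPM in WT_VILI and 521 CPM in KO_noVILI in the authors' deposited tables. Car4 made up 248 CPM of that KO_noVILI sum, and single genes of the list did change. Marco was called higher in KO_VILIhigh than in WT_VILI, at 2.05 in log2 units in the authors' deposited edgeR table. In KO_noVILI against WT_noVILI, Marco at 1.62 and Car4 at 0.50 were called higher and Fabp4 at -1.28 lower, in log2 units in the authors' deposited edgeR table. For 10 eosinophil, basophil and mast cell genes the sum lay between 6.73 CPM in WT_VILI and 11.7 CPM in WT_noVILI in the authors' deposited tables. No marker of these lists was at the lowest level in all 4 tables, and the part of blood content in the neutrophil results was not tested.

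**Figure D4:**
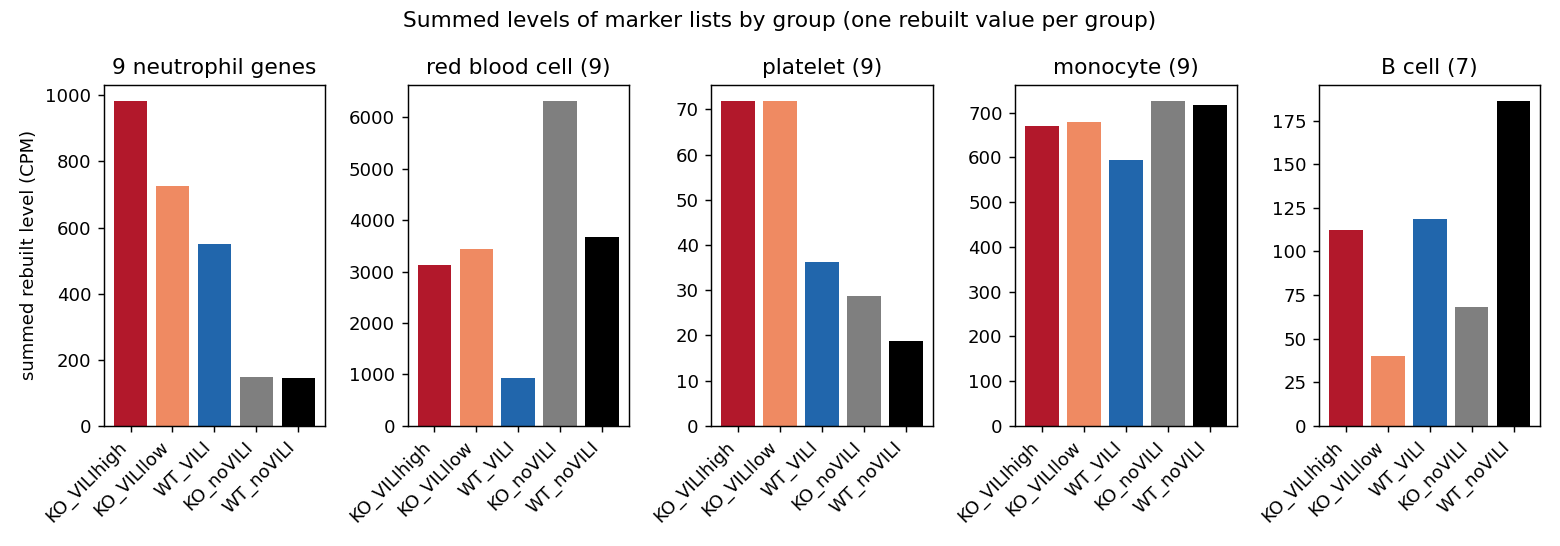
Summed rebuilt level in CPM (vertical, bars from 0) of the 9 neutrophil genes and of red blood cell, platelet, monocyte and B cell lists (panels) in the 5 groups (horizontal), with 1 rebuilt value per group and no error. The neutrophil sum is 982 CPM in KO_VILIhigh and 145 CPM in WT_noVILI, whereas the red blood cell sum is lowest in WT_VILI, at 938 CPM.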

How the data were processed

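RNA sequencing of whole mouse lungs in 5 groups was available as the authors' 4 comparison tables, each of 21590 genes and none (0 columns) with a value per library. Reads were aligned with Bowtie 1.1.2 to mm9 and compared with edgeR (version not given) in R 3.0.1, per the submitters' processing notes; the counting method is not given in the sources used here. The deposited logFC and logCPM were taken to be log2 fold changes and log2 mean CPM of the pair of groups, although no header says so. Each deposited p-value, with its FDR, is that of the authors' edgeR test, and genes were called at an adjusted p of 0.05.

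The labels list WT_noVILI beside every file. Over 10562 genes, the reference level of the KO_VILIlow and KO_VILIhigh tables differed from WT_VILI by a median of 0.0491 and 0.045 log2, and from WT_noVILI by 0.205 and 0.203 log2, so both were read as comparisons with WT_VILI. The level of each group was then solved from these values. WT_VILI was taken from its comparison with WT_noVILI, as was WT_noVILI, and each knockout group from its own table.

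For 5 derived comparisons the deposited fold changes were added or subtracted, their approximate variances summed, and normal p-values adjusted by Benjamini-Hochberg over genes whose log2 mean CPM was 0 or more in each table involved. Such tests are approximate, and were tested on simulated data. The members and all lists were chosen with earlier results of these data known. The genes named are the members, up to 3 called genes of smallest p per list and comparison, the 6 genes nearest in profile, markers set beside a result, and Cldn4. Lyz2, Cxcr2 and the neighbours on chromosome 9 were named after their values were seen. Alternatives were other thresholds, adjustments, abundance minimums, centrings and errors. Promoters were read from a RefSeq table on GRCm38.p6, while the authors used mm9. The work was done in Python 3.11.15 with scipy 1.17.1, pandas 2.3.3, numpy 2.4.6 and matplotlib 3.10.9.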

Additional observations from a re-analysis of the deposited data

How the results depend on the processing

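With no values per library, leaving out a library could not be run, and depth cannot be weighed. No paired analysis was possible because the tables hold no values per library and the labels no replicate numbers. Of the counts of called genes, 29 stayed within 1.5 times the reported one and 11 did not; the 72 single-gene values under 2 centrings kept their side. In WT_VILI against WT_noVILI, Bonferroni adjustment left 3 of 7 genes called (S100a8, Ngp and Csf3r). In KO_VILIhigh against WT_VILI it left 1 of 2 (Ltf). In KO_VILIlow against WT_VILI, 0 genes were called at an FDR of 0.01, 0 by Bonferroni and 0 with a log2 fold change of at least 1, and 1 (Ngp) by edgeR at 0.05, with 3 at an unadjusted p under 0.05. In KO_noVILI against WT_noVILI, 0 were called at an FDR of 0.01 and 0 by Bonferroni, and 1 (Ngp) by edgeR at 0.05, with 2 at an unadjusted p under 0.05. In KO_VILIlow against KO_noVILI, 2 of 4 stayed at an adjusted p of 0.01 (S100a8 and Csf3r). With the error from the t quantile with 2 degrees of freedom, the p-values were taken from a t distribution with more degrees of freedom. The error and the p-value of that setting thus rest on different degrees of freedom. There 2 genes (Ngp and Ltf) were called between KO_VILIhigh and KO_VILIlow, where 120 of all genes were called in place of 20. It also called 1 gene (Ngp, lower) in each genotype difference with minus without ventilation, and the cause was not tested. Reading the deposited abundance as a mean of logs moves the rebuilt wild-type levels of Ngp by 2.22 times and of Camp by 1.92 times. That reading turns the order of KO_VILIlow and WT_VILI for Ngp and that of KO_noVILI and WT_noVILI for S100a8. For Retnlg it widens the gap between KO_VILIlow and WT_VILI and leaves their order as it was.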

Other observations

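The 6 genes whose rebuilt levels over the 5 groups lay nearest to the median profile of the 6 more abundant neutrophil genes, among 13305 genes, were Myc, Plk3, Arid5a, Clec4d, Slc25a25 and Trib1. Their root mean square distances from that profile were 0.0844 for Myc, 0.125 for Plk3, 0.134 for Arid5a, 0.137 for Clec4d, 0.156 for Slc25a25 and 0.157 for Trib1, in log2 units. The neutrophil genes themselves lay between 0.145 (S100a9) and 1.03 (Ngp) from it. The levels of Plk3 in the authors' deposited tables were 136 CPM in KO_VILIhigh, 78.9 CPM in KO_VILIlow, 70.2 CPM in WT_VILI, 15.9 CPM in KO_noVILI and 15.2 CPM in WT_noVILI. With 5 points per gene, many genes that differ between ventilated and unventilated lungs share such a profile, and the likeness is a description.

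Camp, Ngp and Ltf lie on chromosome 9 within 1.17 Mb on GRCm38.p6. Among 28 listed genes between Camp and Ltf, chosen after values were seen, edgeR in the authors' deposited tables called 0 in KO_VILIhigh against WT_VILI, where 1 had an unadjusted p under 0.05, and 1 in KO_VILIlow against WT_VILI (Myl3, 1.68 on the log2 scale). In WT_VILI against WT_noVILI it called 0 of 19, where 3 had an unadjusted p under 0.05. In KO_noVILI against WT_noVILI it called 1 of 19 (Rtp3, 1.01 in log2 units in the authors' deposited table).

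B cell and proliferation genes differed between the groups in other patterns than the neutrophil genes. The sum of 7 B cell genes was 112 CPM in KO_VILIhigh, 40.2 CPM in KO_VILIlow, 119 CPM in WT_VILI, 68.3 CPM in KO_noVILI and 186 CPM in WT_noVILI in the authors' deposited tables. By edgeR in those deposited tables, 6 of 7 were lower in KO_VILIlow than in WT_VILI and 7 of 7 were lower in KO_noVILI than in WT_noVILI. Of all 21590 genes, 210 and 726 were called in either direction in these comparisons, in that order. Of 7 proliferation genes, 4 were higher in KO_noVILI than in WT_noVILI, against 1.45 percent of all genes. Among them was Aurkb, at 1.75 in log2 units in the authors' deposited edgeR table.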
